A study of Mus musculus with 12 samples.

Results

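Genes that govern the sterol-sensing transcription factor SREBP2 and the uptake and transfer of sterols were followed in mouse liver. There were 6 of them, Srebf2, Scap, Insig1, Insig2, Mylip and Stard4. They were found by the gene symbol that the array platform's annotation gives each probe set, which yielded 12 of the 45101 probe sets on the array, and they are 6 of the 18194 genes with a single symbol. Srebf2 and Scap were read by 2 probe sets each, Insig2 and Stard4 by 3 each, and Insig1 and Mylip by 1 each. For the gene tests, each gene was represented by the probe set whose mean over the 12 arrays was highest. All levels below are log2 values made by RMA, a method that subtracts background, gives all arrays the same distribution of probe values and reduces each probe set to 1 value. Probe sets bind their targets with different strength, so only differences of 1 probe set between arrays are compared.

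SREBP2 is made as a membrane protein of the endoplasmic reticulum, where it is bound to SCAP. When sterols are scarce, SCAP carries it to the Golgi, where proteases release the part that enters the nucleus and switches on the genes of cholesterol synthesis and uptake. When sterols are plentiful, INSIG1 or INSIG2 holds SCAP in the endoplasmic reticulum. Insig1 is itself an SREBP target, whereas in mouse liver a transcript from an upstream Insig2 promoter is known to be raised by fasting and lowered by insulin. Mylip, also called IDOL, encodes an E3 ubiquitin ligase that marks the LDL receptor for degradation and is a target of LXR, the receptor for oxysterols. Stard4 encodes a cytosolic sterol transfer protein and is an SREBP target.

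The study's question concerns the part of hepatic glucose sensing in the glucose competence of beta cells, and the arrays measured liver RNA only. The arrays formed 4 groups of 3: LG2KO refed, control refed, LG2KO fasted and control fasted. All mice had the strain label SV129XC57Bl/6, and the RNA of 3 animals was pooled for each array. LG2KO is taken to mean loss of the liver glucose transporter Glut2, the product of Slc2a2. The labels name tamoxifen for the LG2KO mice and not for the controls, so the effects of genotype and of tamoxifen cannot be told apart. The sources used here do not give the promoter or cell type that drives the deletion, or the age and sex of the mice. For the fasted LG2KO arrays the source field names both feeding states, and the title and diet fields, which name fasting alone, were followed. The replicates were pools, so the p-values judge group differences against the variation between pools. Variation between single animals was not measured.

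The Slc2a2 transcript had levels of 3.79, 3.64 and 3.80 in refed LG2KO livers, against 10.67, 11.30 and 10.90 in refed controls. It had levels of 4.02, 4.13 and 3.56 in fasted LG2KO livers, against 10, 11.08 and 10.82 in fasted controls. It fell by 7.21 ± 0.25 (SE) in refed and by 6.73 ± 0.25 in fasted LG2KO livers, with limma adjusted p = 2.26e-08 and 5.21e-08. The mean level of 9 hepatocyte markers was 12.59 to 12.90 on every array. The arrays control refed 1 and LG2KO fasted 3 correlated with the arrays of their own group at 0.984 to 0.988 over probe sets, while the remaining arrays of a group correlated at 0.994 or more. These 2 arrays were known from earlier results of these data, and results are given with and without them where they change. The mean of 9 markers of exocrine pancreas was 7.98 on control fasted 3 and 5.18 to 5.50 on the other arrays. Values without that array are given for the refeeding and genotype comparisons of the 6 genes, for Insig1 minus Insig2 and for the enzyme medians. Values of the other named genes include that array. The 2 measured adipose markers, Adipoq and Cidec, averaged 6.34 on LG2KO refed 2, against 4.21 and 4.45 on the other refed LG2KO arrays. Adipoq, an adipocyte hormone, was 6.81 there and 3.15 to 4.61 on all other arrays. Cidec was 5.87 there, 4.57 to 5.76 on the refed controls and 6.12 to 7.18 on the fasted arrays. Only Adipoq thus set LG2KO refed 2 apart from all other arrays. The part of either array's marker signal in the results was not tested. Because whole liver was measured, fewer cells of a type and less RNA per cell cannot be told apart.

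The promoters of the regulators are shown here because 4 of the genes moved with feeding in different directions and Insig2 has several starts. RefSeq on mouse build GRCm38.p6 held windows of 250 bases before to 50 bases after the start for 5 of the 6 genes. The windows shown are Srebf2 at chr15:82147019-82147318 on the plus strand, Insig1 at chr5:28071162-28071461 on the plus strand, the most upstream Insig2 start at chr1:121332540-121332839 on the minus strand, and Mylip at chr13:45389492-45389791 on the plus strand. Capitals mark matches, on either strand, to the sterol regulatory element letters TCACNCCAC or TCACCCCA, the NF-Y box CCAAT, the E-box CACGTG or the LXR element, which is 2 copies of AGGTCA in the same direction with any 4 bases between them. The first pair of motifs overlap in their letters, and TCACCCCA was added after the windows had been read.
Srebf2: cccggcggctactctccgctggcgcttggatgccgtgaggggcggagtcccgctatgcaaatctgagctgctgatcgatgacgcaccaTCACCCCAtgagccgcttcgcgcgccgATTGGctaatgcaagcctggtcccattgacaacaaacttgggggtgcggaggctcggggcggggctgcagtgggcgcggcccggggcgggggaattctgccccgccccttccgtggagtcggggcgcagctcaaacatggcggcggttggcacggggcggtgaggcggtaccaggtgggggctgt
Insig1: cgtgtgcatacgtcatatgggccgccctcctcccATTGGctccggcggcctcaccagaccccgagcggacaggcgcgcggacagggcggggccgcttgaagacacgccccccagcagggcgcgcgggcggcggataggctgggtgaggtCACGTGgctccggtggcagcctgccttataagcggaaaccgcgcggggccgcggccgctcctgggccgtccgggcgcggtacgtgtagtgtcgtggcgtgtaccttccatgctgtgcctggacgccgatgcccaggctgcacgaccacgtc
Insig2: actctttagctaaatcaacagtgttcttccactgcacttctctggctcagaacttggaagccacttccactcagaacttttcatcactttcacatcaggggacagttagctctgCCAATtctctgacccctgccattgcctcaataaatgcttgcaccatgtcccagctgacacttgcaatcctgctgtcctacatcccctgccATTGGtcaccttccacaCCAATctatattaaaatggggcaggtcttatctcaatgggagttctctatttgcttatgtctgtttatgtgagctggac
Mylip: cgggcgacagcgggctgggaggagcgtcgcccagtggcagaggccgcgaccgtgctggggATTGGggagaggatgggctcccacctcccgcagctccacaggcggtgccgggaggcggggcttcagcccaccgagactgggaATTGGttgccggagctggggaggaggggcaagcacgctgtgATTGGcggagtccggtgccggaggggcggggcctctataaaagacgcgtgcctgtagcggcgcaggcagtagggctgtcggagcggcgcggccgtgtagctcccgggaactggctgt
The Srebf2 window held TCACCCCA at -162, counting the start base as 0, and the NF-Y box ATTGG on the reverse strand at -135. TCACCCCA occurred in 1.56% of the 32851 windows of all genes and CCAAT in 37.4%. The Insig1 window held 1 NF-Y box at -216 and 1 E-box at -101, and the E-box occurred in 7.15% of all windows. The Scap windows, which are not shown, held the E-box as well, at 28 and at -40 from their own starts. The upstream Insig2 window held 3 NF-Y boxes, at -136, -46 and -29, and its other 2 windows held no match. The Mylip window held 3 NF-Y boxes, at -190, -108 and -67. TCACNCCAC, found in 1.24% of all windows, and the LXR element, found in 0.0152%, matched none of the windows of these genes. A match describes the letters only, and none of these windows was measured for factor binding.

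**Figure D1:**
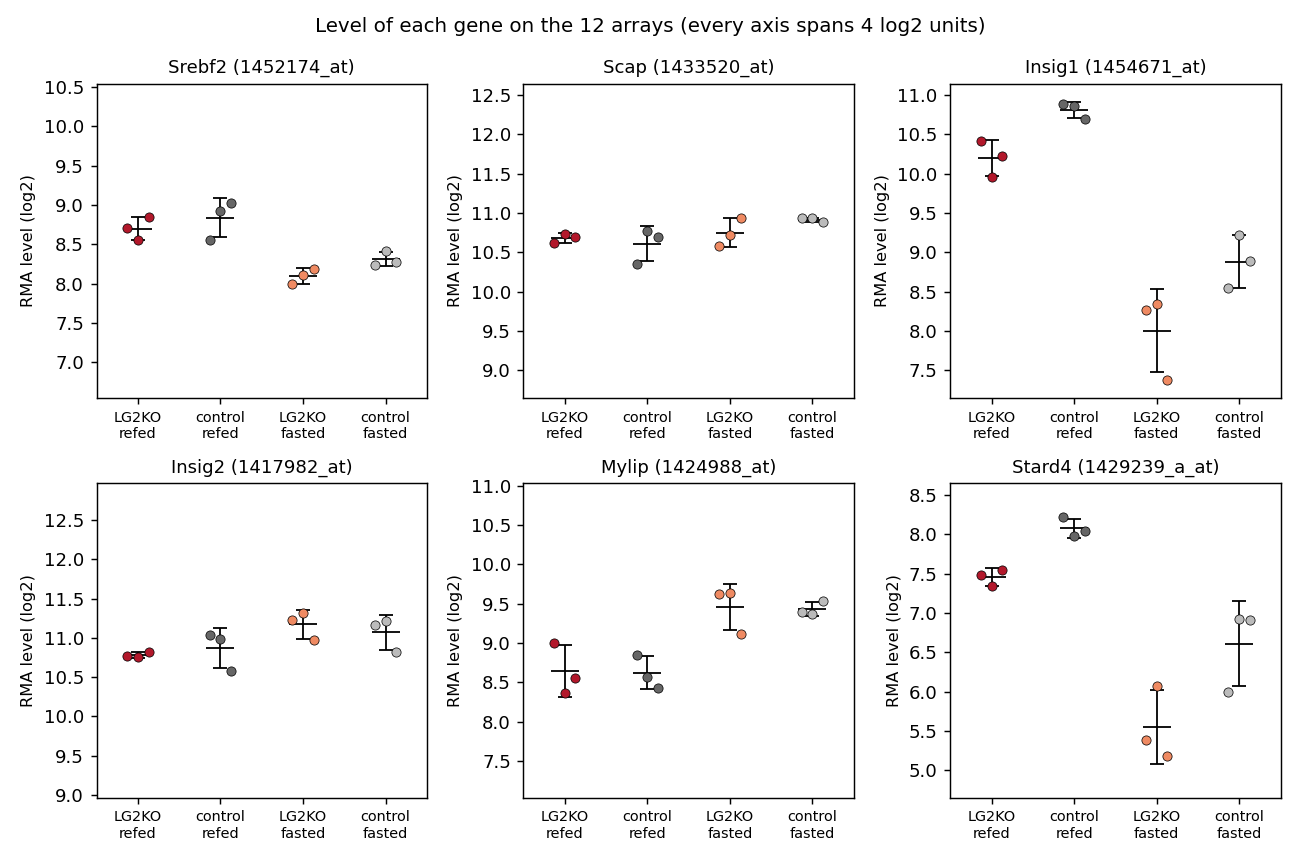
Level of each gene (log2, vertical axis) on the 12 arrays, with 1 point per array, a bar at the group mean and whiskers of 1 SD; every panel spans the same number of log2 units. Insig1 and Stard4 were higher in refed than in fasted livers of both genotypes and Mylip was lower, while Scap and the Insig2 probe set shown lay within a narrow range.

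Refeeding moved 4 of the 6 genes in LG2KO livers and the same 4 in control livers. Insig1, Stard4 and Srebf2 rose and Mylip fell, whereas the probe sets standing for Insig2 and Scap did not pass. Of all genes, 7.05% passed the same test at an adjusted p below 0.05 in LG2KO livers and 6.46% in control livers. The difference between the genotypes in the response to refeeding, tested as the interaction, passed for 0 of the 6 genes with limma, and 0 of the 6 had an unadjusted p below 0.05. Of all genes, 0.00550% passed that test and 4.73% had an unadjusted p below 0.05.

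Srebf2 encodes SREBP2 itself. Its level was 8.71, 8.55 and 8.85 in refed LG2KO livers, against 8.0, 8.11 and 8.19 in fasted LG2KO livers. It was 8.55, 8.92 and 9.03 in refed controls, against 8.24, 8.41 and 8.28 in fasted controls. In both genotypes every refed array lay above every fasted array. Refed and fasted groups did not overlap, in either direction, for 22.5% of all genes in LG2KO and 20.5% in control livers. Srebf2 rose by 0.60 ± 0.13 in LG2KO livers (adjusted p = 0.016) and by 0.53 ± 0.13 in control livers (adjusted p = 0.0311). The second Srebf2 probe set, 1426744_at, gave larger rises of 1.04 ± 0.21 (adjusted p = 0.0135 over all probe sets) and 0.90 ± 0.21 (adjusted p = 0.0304). The call on the Srebf2 gene was near the threshold. It was lost in LG2KO livers without LG2KO refed 1 (0.60), LG2KO refed 3 (0.52), LG2KO fasted 1 (0.55) or LG2KO fasted 2 (0.60), with adjusted p from 0.0508 to 0.0809. In control livers it was lost without control refed 2 (0.49) or 3 (0.43), or without control fasted 1 (0.49), 2 (0.58) or 3 (0.52), with adjusted p from 0.06 to 0.134. It was also lost there in a fit of the 2 compared groups alone (adjusted p = 0.0997). Without control refed 1 and LG2KO fasted 3 together, Srebf2 rose by 0.64 in LG2KO livers and by 0.67 in control livers.

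Scap, the escort of SREBP2, stood at 10.62, 10.73 and 10.69 in refed LG2KO livers, against 10.58, 10.72 and 10.94 in fasted LG2KO livers. It stood at 10.35, 10.77 and 10.70 in refed controls, against 10.93, 10.93 and 10.88 in fasted controls. The LG2KO groups overlapped and the control groups did not. The differences were -0.07 ± 0.11 in LG2KO livers (95% interval -0.31 to 0.18, adjusted p = 0.875) and -0.31 ± 0.11 in control livers (-0.55 to -0.06, adjusted p = 0.164). A second Scap probe set, 1442885_at, ranged from 4.58 to 5.43 over all arrays and passed in no comparison.

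Insig1, which retains SCAP, showed the largest change among the 6 genes in both refeeding comparisons. Its level was 10.42, 9.96 and 10.23 in refed LG2KO livers, against 8.27, 8.34 and 7.38 in fasted LG2KO livers. It was 10.88, 10.86 and 10.70 in refed controls, against 8.54, 9.22 and 8.89 in fasted controls. The lowest refed array, LG2KO refed 2 at 9.96, lay above the highest fasted array, control fasted 2 at 9.22. Insig1 rose by 2.21 ± 0.23 on the log2 scale, or 4.62-fold, in LG2KO livers (adjusted p = 0.00014) and by 1.93 ± 0.23, or 3.81-fold, in control livers (adjusted p = 0.000333). LG2KO fasted 3 held the lowest Insig1 level, and without it and control refed 1 the rise was 1.90 in each genotype.

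Insig2, the second retention protein, was read by 3 probe sets that differed in size of change. The probe set with the highest mean, 1417982_at, gave 10.77, 10.75 and 10.82 in refed LG2KO livers, against 11.23, 11.32 and 10.97 in fasted LG2KO livers. It gave 11.03, 10.99 and 10.58 in refed controls, against 11.16, 11.22 and 10.82 in fasted controls. The refed LG2KO arrays lay below the fasted ones without overlap, while the control groups overlapped. The difference of -0.39 ± 0.14 in LG2KO livers (95% interval -0.69 to -0.10, adjusted p = 0.12) and that of -0.20 ± 0.14 in control livers (-0.50 to 0.09, adjusted p = 0.554) did not pass.

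The other Insig2 probe sets had the same sign and a wider spread. Probe set 1417981_at gave 9.49, 9.39 and 9.02 in refed LG2KO livers, against 10.80, 10.84 and 9.54 in fasted LG2KO livers. It gave 10.38, 9.48 and 8.95 in refed controls, against 10.36, 10.21 and 10.03 in fasted controls. Control refed 1 was the highest refed array and LG2KO fasted 3 the lowest fasted array, and these are the 2 arrays that stood apart. With all arrays, 1417981_at differed by -1.10 ± 0.35 in LG2KO livers (adjusted p = 0.132) and by -0.60 ± 0.35 in control livers (adjusted p = 0.554). Probe set 1417980_a_at differed by -1.16 ± 0.35 (adjusted p = 0.0966) and by -0.70 ± 0.35 (adjusted p = 0.436).

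Without control refed 1 and LG2KO fasted 3, these Insig2 probe sets passed in both genotypes. Probe set 1417980_a_at then fell by 1.61 ± 0.17 in LG2KO livers (adjusted p = 0.000129) and by 1.04 ± 0.17 in control livers (adjusted p = 0.00237). Probe set 1417981_at fell by 1.52 ± 0.17 (adjusted p = 0.000161) and by 0.99 ± 0.17 (adjusted p = 0.00291). Probe set 1417982_at fell by 0.50 ± 0.13 in LG2KO livers (adjusted p = 0.0253) and differed by -0.29 ± 0.13 in control livers (adjusted p = 0.237). With these 10 arrays, 8 of the 12 probe sets of the 6 genes passed in each genotype, where 11.6% of all probe sets passed in LG2KO livers and 7.44% in control livers. With all 12 arrays, 5 and 6 of the 12 passed, against 3.97% and 3.82% of all probe sets. The sources used here do not say which Insig2 transcript each probe set reads.

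**Figure D2:**
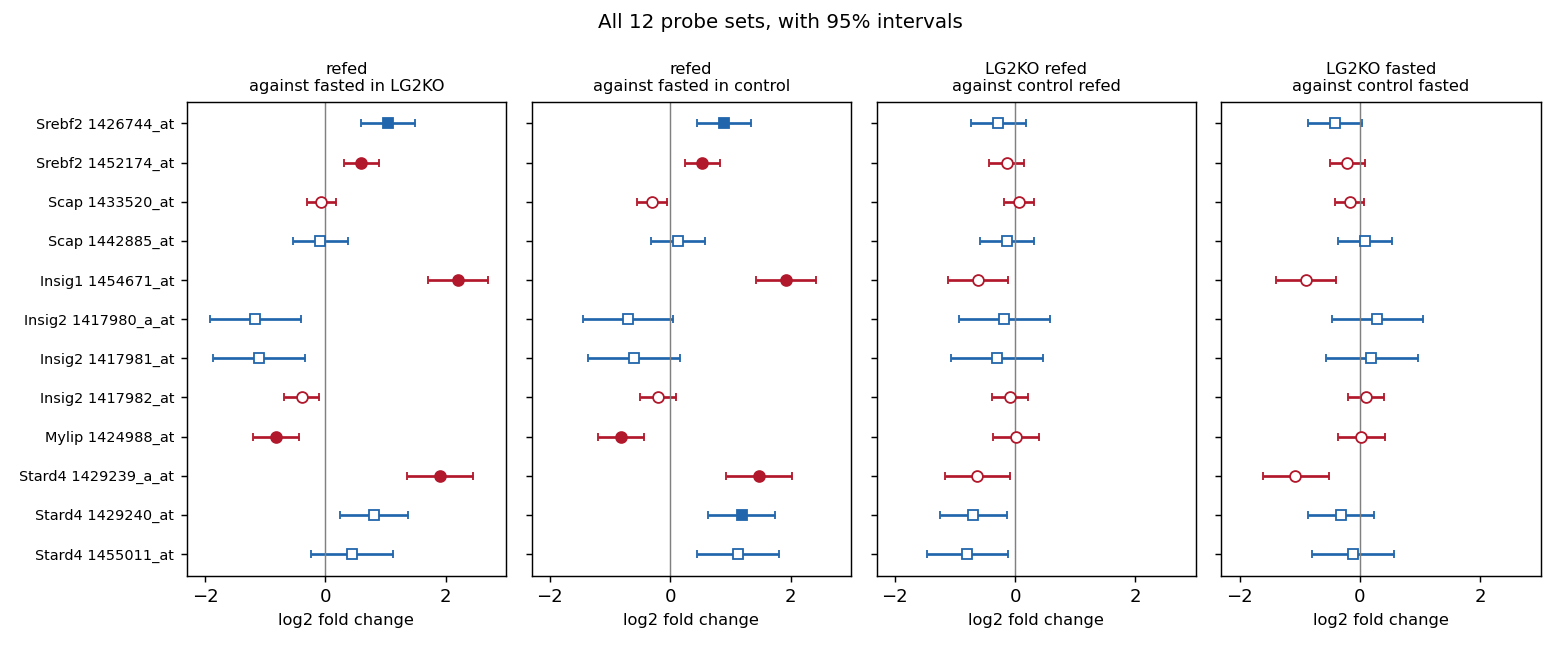
Log2 fold change (horizontal axis) of all 12 probe sets of the 6 genes in the refeeding and genotype comparisons, with 95% intervals; circles are the probe sets that stand for the gene, squares the others, and filled symbols have an adjusted p below 0.05. The 3 Insig2 probe sets lie left of 0 after refeeding in both genotypes, with wider intervals for 1417980_a_at and 1417981_at, and the 3 Stard4 probe sets lie right of 0.

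Mylip, the ligase that lowers the LDL receptor, fell on refeeding. Its level was 9.0, 8.36 and 8.55 in refed LG2KO livers, against 9.62, 9.63 and 9.12 in fasted LG2KO livers. It was 8.85, 8.57 and 8.43 in refed controls, against 9.39, 9.37 and 9.53 in fasted controls. All refed arrays lay below all fasted arrays. Mylip fell by 0.82 ± 0.18, or 1.77-fold, in LG2KO livers (adjusted p = 0.0154) and by 0.82 ± 0.18, or 1.76-fold, in control livers (adjusted p = 0.0164). The call was lost in LG2KO livers in a fit of the 2 compared groups alone (adjusted p = 0.0563). It was also lost there without LG2KO refed 2 (-0.68) or 3 (-0.78), or LG2KO fasted 1 (-0.74) or 2 (-0.74), with adjusted p from 0.0669 to 0.0748. In control livers it was lost without control refed 2 (-0.79) or 3 (-0.73), or control fasted 1 (-0.84) or 3 (-0.77), with adjusted p from 0.0522 to 0.0724. Without control refed 1 and LG2KO fasted 3, Mylip fell by 0.99 in LG2KO livers and by 0.93 in control livers.

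Stard4, the sterol carrier, rose on refeeding. Probe set 1429239_a_at gave 7.48, 7.34 and 7.55 in refed LG2KO livers, against 5.38, 6.07 and 5.18 in fasted LG2KO livers. It gave 8.22, 7.98 and 8.05 in refed controls, against 5.99, 6.93 and 6.91 in fasted controls. Every refed array lay above every fasted array. Stard4 rose by 1.91 ± 0.26, or 3.76-fold, in LG2KO livers (adjusted p = 0.000733) and by 1.47 ± 0.26, or 2.77-fold, in control livers (adjusted p = 0.00381). The other probe sets gave smaller rises. Probe set 1429240_at rose by 1.19 ± 0.26 in control livers (adjusted p = 0.0203) and differed by 0.81 ± 0.26 in LG2KO livers (adjusted p = 0.122). Probe set 1455011_at differed by 1.13 ± 0.31 in control livers (adjusted p = 0.0728) and by 0.45 ± 0.31 in LG2KO livers (adjusted p = 0.666).

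Srebf2, Insig1 and Stard4 were higher on every refed than on every fasted array within both genotypes, as were 5.50% of all genes. Mylip was lower on every refed array within both genotypes, as were 4.24% of all genes. The array with pancreatic markers, control fasted 3, enters the control comparison. Without it Insig1 rose by 1.93 and Stard4 by 1.62 in control livers, while Srebf2 (0.52, adjusted p = 0.0995) and Mylip (-0.77, adjusted p = 0.0678) no longer passed. Scap then differed by -0.32 and Insig2 by -0.33 in control livers, and neither passed. Without LG2KO refed 2, the array with the high Adipoq level, Insig1 rose by 2.33, Stard4 by 1.97 and Srebf2 by 0.67 in LG2KO livers. Mylip then did not pass (-0.68, adjusted p = 0.0748). Other genes known to respond to feeding in the liver were read in the same fit. Pck1, a gluconeogenic enzyme, fell by 0.58 ± 0.16 in LG2KO livers (adjusted p = 0.0429) and by 0.72 ± 0.16 in control livers (adjusted p = 0.0153). Srebf1, which encodes the lipogenic factor SREBP1, rose by 1.65 ± 0.10 and by 1.38 ± 0.10 (adjusted p = 3.13e-06 and 7.59e-06). Igfbp1, an insulin-repressed secreted protein, differed by -0.81 ± 0.59 and -1.60 ± 0.59 and did not pass (adjusted p = 0.581 and 0.162). G6pc, which releases free glucose, fell by 1.05 ± 0.15 in LG2KO livers (adjusted p = 0.00117) and differed by -0.23 ± 0.15 in control livers (adjusted p = 0.542). Its mean level was 12.83 in fasted LG2KO and 11.64 in fasted control livers, a difference of 1.19 that passed. After refeeding the means were 11.78 and 11.41. Irs2, an insulin receptor substrate, differed by -0.19 ± 0.19 in LG2KO livers (adjusted p = 0.73), and in control livers it fell by 0.98 ± 0.19 (adjusted p = 0.00729). The difference between genotypes in the response to refeeding passed for neither G6pc nor Irs2 (interaction adjusted p = 0.574 and 0.878).

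Genotype moved fewer of these genes. With limma, 0 of the 6 passed after refeeding and 0 of the 6 in the fasted state, where 0.379% and 0.396% of all genes passed. At an unadjusted p below 0.05 there were 2 in each state, Insig1 and Stard4 both times, each lower in LG2KO livers, where 9.13% of all genes had such a p after refeeding and 5.20% in the fasted state. The LG2KO and control groups did not overlap for 15.4% of all genes after refeeding and for 10.8% in the fasted state. At the level of probe sets 0 of the 12 passed with limma in either state, where 0.115% and 0.191% of all probe sets passed. At an unadjusted p below 0.05 there were 4 of the 12 after refeeding, the Insig1 set and all 3 Stard4 sets, and 2 in the fasted state. The share of all probe sets with such a p was not counted. Among genes it was 9.13% and 5.20%, as given above. The refed LG2KO arrays enter both this and the refeeding comparison in LG2KO livers, and likewise for the other groups, so the comparisons share arrays.

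Insig1 differed by -0.61 ± 0.23 after refeeding (95% interval -1.12 to -0.10, adjusted p = 0.433), with the highest refed LG2KO array at 10.42 and the lowest refed control at 10.70. In the fasted state it differed by -0.89 ± 0.23 (-1.40 to -0.38, adjusted p = 0.253), with the highest LG2KO array at 8.34 and the lowest control at 8.54. The LG2KO and control arrays thus did not overlap in either feeding state, which was so with a lower LG2KO level for 0.693% of all genes. Averaged over both feeding states Insig1 differed by -0.75 ± 0.17 (-1.11 to -0.39, adjusted p = 0.0605). Without LG2KO fasted 3 the fasted difference was -0.58 and the average -0.59 (adjusted p = 0.057). The average passed without control fasted 1 (-0.83, adjusted p = 0.0478). Without control fasted 3, the array with pancreatic markers, the fasted difference was -0.88 and the average -0.75 (adjusted p = 0.143). Without LG2KO refed 2 the refed difference was -0.49 and the average -0.69 (adjusted p = 0.156).

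Stard4 differed by -0.63 ± 0.26 after refeeding (95% interval -1.19 to -0.07, adjusted p = 0.469) and by -1.07 ± 0.26 in the fasted state (-1.62 to -0.51, adjusted p = 0.175). The refed groups did not overlap, with LG2KO arrays at 7.34 to 7.55 and controls at 7.98 to 8.22. The fasted groups overlapped, since LG2KO fasted 2 at 6.07 exceeded control fasted 1 at 5.99. Averaged over both feeding states, Stard4 fell by 0.85 ± 0.18 (adjusted p = 0.049), the 1 of the 6 genes that passed, where 1.02% of all genes did. This call lay at the threshold and was lost without any 1 of 10 of the 12 arrays, with averages from -0.87 to -0.76 and adjusted p from 0.0905 to 0.149, and it was kept without control fasted 1 or LG2KO fasted 2. Without control fasted 1, the lowest fasted control, the fasted difference was -1.38 and passed (adjusted p = 0.0285). Without control refed 1 and LG2KO fasted 3 together, the average was -0.72 (adjusted p = 0.102). Without control fasted 3 the fasted difference was -0.92 and the average -0.77 (adjusted p = 0.138), and without LG2KO refed 2 the refed difference was -0.57 and the average -0.82 (adjusted p = 0.125). The other Stard4 probe sets had the same sign in both states. Probe set 1429240_at differed by -0.69 after refeeding and -0.32 in the fasted state, and 1455011_at by -0.79 and -0.11, and neither passed.

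The other 4 genes did not pass between genotypes. Srebf2 differed by -0.14 ± 0.13 after refeeding and by -0.21 ± 0.13 in the fasted state, where its LG2KO arrays at 8.0 to 8.19 lay below the controls at 8.24 to 8.41. The second Srebf2 probe set, 1426744_at, differed by -0.28 ± 0.21 and -0.42 ± 0.21. Without control refed 1 and LG2KO fasted 3, the refed differences were -0.28 ± 0.11 for 1452174_at and -0.54 ± 0.16 for 1426744_at. The averages over both states were then -0.27 ± 0.08 and -0.44 ± 0.11. None of these passed with limma. With all arrays, Scap differed by 0.07 ± 0.11 after refeeding and by -0.17 ± 0.11 in the fasted state. Insig2, read by 1417982_at, differed by -0.09 ± 0.14 after refeeding (95% interval -0.38 to 0.21) and by 0.10 ± 0.14 in the fasted state (-0.20 to 0.40). Probe set 1417980_a_at differed by -0.18 ± 0.35 and 0.29 ± 0.35, and 1417981_at by -0.3 ± 0.35 and 0.19 ± 0.35. Without control refed 1 and LG2KO fasted 3, the fasted differences were 0.74 ± 0.17 for 1417980_a_at and 0.62 ± 0.17 for 1417981_at. For 1417982_at the fasted difference was then 0.21 ± 0.13. None of these passed with limma. With all arrays, Mylip differed by 0.02 ± 0.18 in each state (-0.37 to 0.41). The intervals of Insig2 and Mylip allow a difference of up to about the upper and lower bounds given, so equality of the genotypes was not shown. Without control fasted 3 the fasted differences were -0.22 for Srebf2, -0.19 for Scap, -0.02 for Insig2 and 0.07 for Mylip, and the averages were -0.18, -0.06, -0.05 and 0.05 in the same order.

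**Figure D3:**
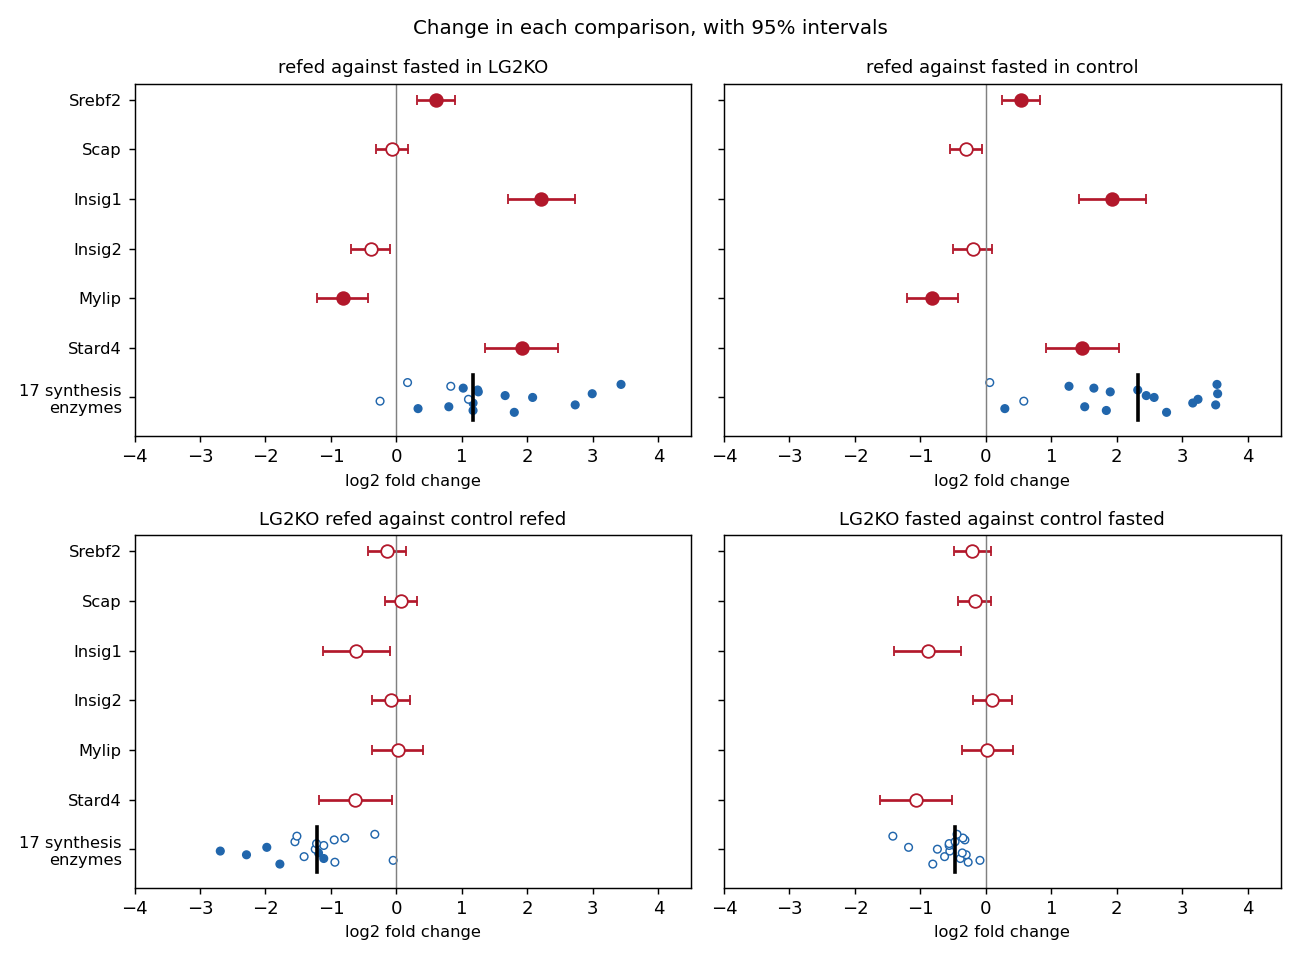
Log2 fold change (horizontal axis) of the 6 genes with 95% intervals and of the 17 measured enzymes of cholesterol synthesis, 1 point per enzyme with a black line at their median, for refeeding in each genotype and for genotype in each feeding state; filled symbols have an adjusted p below 0.05. The enzyme median lies at 1.17 after refeeding in LG2KO and 2.32 in control livers, and at -1.22 for genotype after refeeding and -0.47 in the fasted state.

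Insig1 and Insig2 were compared through their difference within each array, log2 Insig1 minus log2 Insig2, whose change between arrays is free of the probe sets' own offsets. The difference was -0.35, -0.78 and -0.59 in refed LG2KO livers, against -0.16, -0.13 and 0.12 in refed controls. It was -2.96, -2.99 and -3.59 in fasted LG2KO livers, against -2.63, -2.00 and -1.94 in fasted controls. The LG2KO arrays lay below the control arrays in each feeding state and the fasted arrays below the refed ones in each genotype, with no overlap. The balance moved toward Insig1 by 2.37 on refeeding, by 2.60 in LG2KO and 2.13 in control livers, in a two-sided exact permutation test with genotype as stratum (p = 0.005, adjusted p = 0.005 over 2 tests, 6 against 6 arrays). It was lower by 0.75 in LG2KO than in control livers, by 0.52 after refeeding and 0.99 in the fasted state, in the exact permutation test with feeding state as stratum (p = 0.005, adjusted p = 0.005). With 400 arrangements, 0.005 is the smallest p either test can give.

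The same comparison with the other Insig2 probe sets gave refeeding changes of 3.00 (1417980_a_at) and 2.91 (1417981_at), and genotype differences of -0.80 and -0.69. For these genotype differences the exact permutation test with feeding state as stratum gave p = 0.02 (1417980_a_at) and p = 0.045 (1417981_at). With either probe set the refed LG2KO and control arrays overlapped, through control refed 1. The lack of overlap between genotypes after refeeding thus held for 1417982_at only. With 1417982_at again, the changes were 2.29 and -0.68 without the 2 arrays that stood apart, and 2.43 and -0.69 without control fasted 3. Averaged over both feeding states, the genotype difference of Insig1 alone was -0.75 ± 0.17 and that of Insig2 alone, read by 1417982_at, 0.01 ± 0.10. Without the 2 arrays that stood apart, the average was -0.58 ± 0.12 for Insig1. For Insig2 it was then 0.45 ± 0.12 (1417980_a_at), 0.35 ± 0.12 (1417981_at) and 0.10 ± 0.09 (1417982_at). None of these averages passed with limma. On refeeding Insig1 rose, while the 3 Insig2 probe sets had negative differences in both genotypes. With all 12 arrays 1417982_at, which stands for the gene, passed in LG2KO livers with array weights (-0.50, adjusted p = 0.008) or with the replicate block (-0.39, adjusted p = 0.0408), and not in the unweighted fit.

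**Figure D4:**
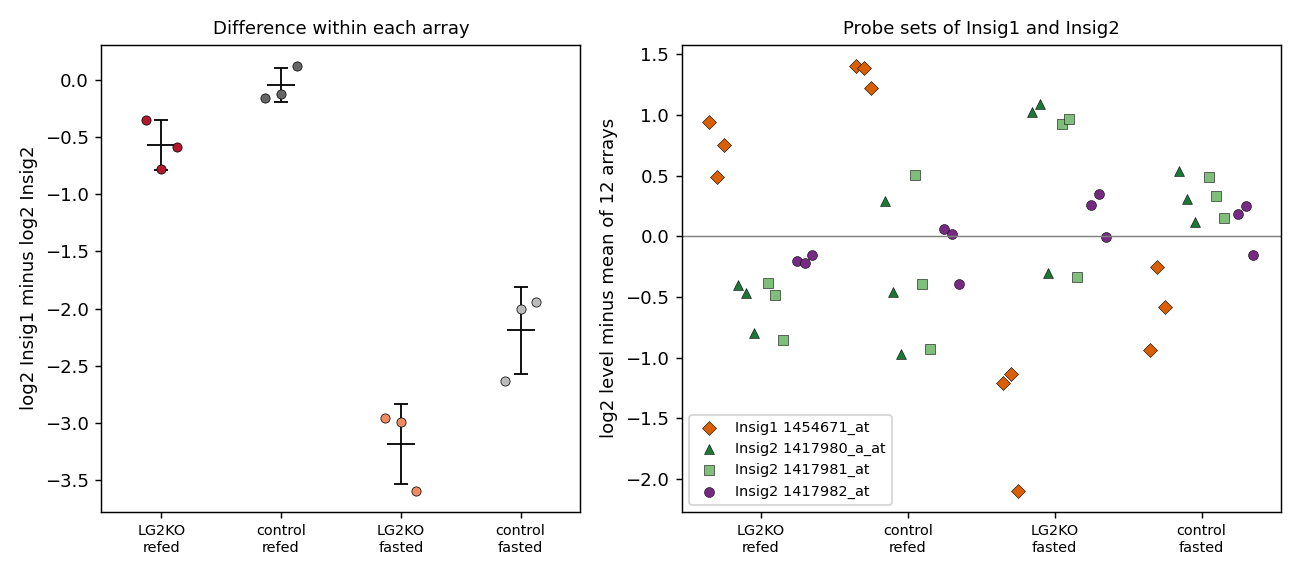
Left, log2 Insig1 minus log2 Insig2 on each array (vertical axis, log2 units) with group means and whiskers of 1 SD. Right, levels of the Insig1 probe set and the 3 Insig2 probe sets on each array, each minus its own mean over the 12 arrays; Insig1 is above 0 on all 6 refed arrays and below 0 on all 6 fasted arrays, and control refed 1 and LG2KO fasted 3 are the points of 1417980_a_at and 1417981_at that lie apart from their groups.

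The enzymes of cholesterol synthesis, the main targets of SREBP2, set the scale for these changes. Of 19 listed enzymes 17 were measured. On refeeding, 13 passed with a rise in LG2KO livers (median of the 17, 1.17) and 15 in control livers (median 2.32). The shares of all genes passing there, in either direction, were 7.05% and 6.46%. The fold change was positive for 16 of the 17 in LG2KO livers and for all 17 in control livers. Medians over all genes were 0.01 and -0.01. Without control fasted 3 the enzyme median was 2.24 in control livers. In LG2KO livers the smallest adjusted p-values belonged to Mvd (2.99 ± 0.31), Sqle (3.43 ± 0.38), Fdps (2.73 ± 0.35) and Lss (2.08 ± 0.29), which act from mevalonate to lanosterol. In control livers they belonged to Mvd (3.54 ± 0.31), Hmgcs1 (3.16 ± 0.30), Idi1 (3.24 ± 0.32) and Fdps (3.51 ± 0.35). Insig1 thus rose less than 9 of the 17 enzymes in control livers and less than 3 of 17 in LG2KO livers. Stard4 rose less than 13 of 17 in control livers and less than 4 of 17 in LG2KO livers. The refeeding change in LG2KO minus that in control livers was 0.28 ± 0.33 for Insig1 and 0.44 ± 0.36 for Stard4, where the median of the enzymes was -0.67. For Insig1 it was -0.03 without LG2KO fasted 3 and 0.01 without the 2 arrays that stood apart, and the other Stard4 probe sets had the opposite sign (-0.38 and -0.68). Without control fasted 3 it was 0.28 for Insig1 and 0.29 for Stard4, where the median of the enzymes was -0.64. None of these interactions passed, the smallest adjusted p among enzymes being 0.369 for Idi1 (-2.14 ± 0.45) and Hmgcs1 (-1.98 ± 0.42).

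Between genotypes after refeeding, 6 of the 17 enzymes passed, all lower in LG2KO livers, where 0.379% of all genes passed. The median of the 17 was -1.22 against 0.02 for all genes. The 4 with the smallest adjusted p were Idi1 (-2.69 ± 0.32, adjusted p = 0.00516), Hmgcs1 (-2.29 ± 0.30, adjusted p = 0.0103), Msmo1 (-1.98 ± 0.26, adjusted p = 0.0108) and Cyp51 (-1.78 ± 0.31, adjusted p = 0.0405). Insig1 at -0.61 and Stard4 at -0.63 fell short of that, and 15 of the 17 enzymes had lower values than each of them. In the fasted state 0 of the 17 enzymes passed and their median was -0.47, with Msmo1 (-1.18 ± 0.26, adjusted p = 0.114) and Sqle (-1.42 ± 0.38, adjusted p = 0.249) lowest in adjusted p, and Tm7sf2 (-0.44 ± 0.12) and Cyp51 (-0.81 ± 0.31) next. There 15 of the 17 enzymes had values above those of Insig1 (-0.89) and of Stard4 probe set 1429239_a_at (-1.07). These values moved with 1 array and with the probe set used: Insig1 stood at -0.58 without LG2KO fasted 3, where the enzyme median was -0.39, and the other Stard4 probe sets gave -0.32 and -0.11, with a mean of all 3 of -0.50. Whether the members' place among the enzymes differs between feeding states was not tested. Averaged over both states 8 enzymes passed, all lower in LG2KO livers (median of the 17, -0.89), where 1.02% of all genes passed. First by adjusted p were Msmo1 at -1.58 ± 0.19, Idi1 at -1.62 ± 0.22, Hmgcs1 at -1.30 ± 0.21 and Cyp51 at -1.29 ± 0.22. All 17 enzymes had negative genotype differences in both feeding states. Without the 2 arrays that stood apart the enzyme medians were -1.64 after refeeding and -0.39 in the fasted state, and 12 and 0 enzymes passed. Of all 18194 genes, 52 and 93 passed in that setting. Without control fasted 3 the enzyme median was -0.5 in the fasted state and -0.89 averaged over both states.

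Genes of lipoprotein uptake moved in both directions on refeeding. Of 14 listed genes of lipoprotein uptake 12 were measured, and 3 passed on refeeding in LG2KO livers and 3 in control livers (medians 0.04 and -0.16). Of all genes, 7.05% and 6.46% passed in these comparisons. Lsr, a receptor for triglyceride-rich lipoproteins, rose by 0.75 ± 0.11 and by 0.82 ± 0.11 (adjusted p = 0.00176 and 0.000893). Scarb1, the HDL receptor, fell by 0.35 ± 0.07 in LG2KO livers and by 0.64 ± 0.07 in control livers (adjusted p = 0.00933 and 0.000174). Npc1, which exports cholesterol from lysosomes, fell by 0.77 ± 0.11 and by 0.57 ± 0.11 (adjusted p = 0.000982 and 0.00691). Between genotypes 0 of the 12 passed with limma in either feeding state, with medians of -0.01 and -0.05. Mylip, whose product acts on uptake, moved opposite to synthesis on refeeding and showed no genotype difference that passed.

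Genes of the machinery that cuts, carries and degrades the SREBP complex were read next. Of 18 listed genes 17 were measured. On refeeding in LG2KO livers 2 of the 17 passed, both with a rise, where 7.05% of all genes passed. These were Rnf145, a ubiquitin ligase of the endoplasmic reticulum that acts on SCAP in mouse liver (0.61 ± 0.16, adjusted p = 0.0388), and Ube2g2, a ubiquitin-conjugating enzyme of the same compartment (0.42 ± 0.11, adjusted p = 0.0307). On refeeding in control livers 0 of the 17 passed, where 6.46% of all genes did, and 0 passed in both genotype comparisons. Of 14 measured genes of sterol transfer and esterification, 1 passed on refeeding in each genotype, near the 7.05% and 6.46% of all genes. This was Stard5, a relative of Stard4, which fell by 0.59 ± 0.10 and by 0.63 ± 0.10 (adjusted p = 0.0028 and 0.00172). With limma, 0 of the 14 passed between genotypes.

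Mylip was set beside other targets of LXR, of which 9 of 10 were measured. Of all genes, 7.05% passed on refeeding in LG2KO livers and 6.46% in control livers. Of the 9 targets, 2 passed with a rise and 3 with a fall in each genotype. Those that fell with Mylip were Abcg5 (-0.85 ± 0.14 in LG2KO, -1.11 ± 0.14 in control livers) and Abcg8 (-0.59 ± 0.09 and -1.08 ± 0.09), which export sterols into bile, and Lpcat3 (-0.54 ± 0.11 and -0.71 ± 0.11), which remodels phospholipids. Those that rose were Srebf1, given above, and Nr1h3, which encodes LXR alpha (0.67 ± 0.10 and 0.43 ± 0.10). Between genotypes 1 of the 9 passed in each feeding state, Srebf1, which rose by 0.89 ± 0.10 in refed (adjusted p = 0.00499) and by 0.62 ± 0.10 in fasted LG2KO livers (adjusted p = 0.0184). Srebf1 and Srebf2 thus had opposite signs between genotypes, and the Srebf2 difference did not pass.

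Over the 12 arrays Insig1 and Stard4 had a Pearson correlation of 0.97, and of 0.73 after the group means were removed. The 2 values of each point come from 1 array and share the feeding contrast, so the values describe these arrays only. Among the 8859 genes above the median level, those most like Insig1 were Mfhas1 (0.982), Pip4k2b (0.977) and Bcl7c (0.976), and those most like Stard4 were Mfhas1 (0.975), Hsd3b5 (0.972) and Insig1 (0.971). Those most like Srebf2 were Pex5 (0.966), the synthesis enzyme gene Mvd (0.964) and Sort1 (0.962). Those most like Mylip were Enc1 (0.970), Hgsnat (0.967) and Tcp11l2 (0.964). Those most like Insig2 were Cpd (0.965), Cyp2c50 (0.936) and Smap1 (0.86), and those most like Scap were Prr3 (0.928), Ilk (0.92) and Sppl2b (0.915). Without the 2 arrays that stood apart, the correlations of these named pairs over the other 10 arrays ranged from 0.839 to 0.984.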

How the data were processed

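Liver RNA was measured on 12 Affymetrix arrays, 1 per pool of 3 animals. The deposited log2 values were made by the authors with RMA, per the submitters' processing notes; the sources used here do not give the software version or genome build. Probe sets were named through the platform annotation: 34958 had 1 symbol, 932 with several were not used in the gene tests, and 9211 had none listed. Symbols were checked by Entrez number against RefSeq GRCm38.p6, which changed 0. Each of the 18194 genes was represented by its probe set with the highest mean. Groups were taken from titles, genotype and diet labels.

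Tests used limma 3.58.1 under R 4.3.3 (lmFit and then eBayes with intensity trend, 8 residual degrees of freedom) on all 12 arrays, two-sided, with Benjamini-Hochberg adjustment over all genes, or over all 45037 probe sets without the 64 control sets, and an adjusted p below 0.05 counted as passing. The error beside each log2 fold change is its standard error. Array medians were 4.78 to 4.87. Precision is limited by the number of arrays. Insig1 minus Insig2 was tested by exact permutation within strata. The fit was tested on simulated data. Python 3.11.15 with matplotlib 3.10.9 drew the figures. Alternatives were other priors, array weights, a filter on dim genes, the mean of a gene's probe sets, centred arrays, a replicate block, fits of the compared groups only and arrays left out.

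The members and the 15 gene lists were chosen with earlier results of these data known. The genes named are the 6 members, Slc2a2, the 4 synthesis enzymes with the smallest adjusted p per comparison, up to 3 passing members of each other list, Pck1, Igfbp1 and Srebf1 for feeding, and the 3 genes most correlated with each member. Of the 9 marker lists, members passed on refeeding in adipose tissue (Cidec, -1.42 in LG2KO and -1.64 in control livers), hepatocyte (Hnf4a, -0.31 in control livers) and endothelium (Stab2, -0.42 in control livers), and 0 passed in macrophage, stellate cell and fibroblast, cholangiocyte, lymphocyte, erythroid and exocrine pancreas lists. No marker passed between genotypes. Some genes are not reported here.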

Additional observations from a re-analysis of the deposited data

How the results depend on the processing

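The calls of Insig1 and Stard4 on refeeding held in both genotypes under all 21 alternatives, with rises of Insig1 from 1.90 to 2.38 in LG2KO and from 1.76 to 2.10 in control livers, and of Stard4 from 1.06 to 2.17 and from 1.16 to 1.63. Insig1 minus Insig2 kept direction and call under 17 alternatives, from -0.86 to -0.65 for genotype and from 2.26 to 3.00 for refeeding. The use of the other Insig2 probe sets was chosen after seeing the data. Leaving out 1 array gave 2 to 4 of the 6 genes passing on refeeding in LG2KO and 2 to 4 in control livers, 0 to 1 between genotypes in the fasted state, and 0 to 2 for the average genotype difference. That average count was 0 with the prior without trend, the robust prior, the mean of probe sets, centred arrays or without the 2 arrays that stood apart, and 2 with array weights or with genes above the median level. With array weights Insig2 passed on refeeding in LG2KO livers (-0.50, adjusted p = 0.008). With them Insig1 passed on average (-0.64, adjusted p = 0.0162), as it did among genes above the median level (adjusted p = 0.0472). Without the 2 arrays, 8 probe sets passed on refeeding in LG2KO livers in place of 5. With the mean of 3 probe sets Stard4 differed between genotypes by -0.50 in the fasted state. The causes were not tested.

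No pairing by replicate number was seen, as correlations of same-numbered deviations ran from -0.42 to 0.30. With 3 arrays per group these values cannot exclude a pairing. With the replicate block, 0 of the 6 genes passed on average over feeding states (Stard4, adjusted p = 0.0666), and 5 passed on refeeding in LG2KO livers, Insig2 among them (-0.39, adjusted p = 0.0408). Insig1 minus Insig2 had an exact permutation p = 0.0312 under the block.

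Signs that turned belonged to differences that did not pass, the largest being the Stard4 interaction (0.44 in the main fit). With 1 array left out they ran as follows. For genotype after refeeding Scap ran from -0.06 to 0.15 and Mylip from -0.16 to 0.16. In the fasted state Mylip ran from -0.06 to 0.19 and Insig2 from -0.02 to 0.21. For refeeding in LG2KO livers Scap ran from -0.15 to 0.03. For the interaction Srebf2 ran from -0.07 to 0.17, Insig1 from -0.03 to 0.45 and Mylip from -0.19 to 0.13. For the average Insig2 ran from -0.06 to 0.06 and Mylip from -0.07 to 0.11. Scap after refeeding also turned with array weights (-0.04), the mean of probe sets (-0.03) and without the 2 arrays (-0.06). Without those arrays Scap on refeeding in LG2KO livers turned to 0.03 and the interaction of Srebf2 to -0.03. The interaction turned to -0.01 for Srebf2 with array weights and to -0.20 for Stard4 with the mean of probe sets. Of 744 values for single members under alternatives, 667 kept sign and side of the threshold.

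The number of genes passing ranged from 8 to 180 for genotype after refeeding (69 in the main test), 30 to 203 in the fasted state (72), 697 to 3578 for refeeding in LG2KO (1283), 695 to 2454 in control livers (1176), 1 to 20 for the interaction (1) and 88 to 443 for the average (185). Synthesis enzymes passing ranged from 1 to 14 (6), 0 to 1 (0), 6 to 15 (13), 14 to 16 (15) and 4 to 15 for the average (8).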
